A study of Mus musculus with 12 samples.

Results

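The change in total mRNA between naive mouse embryonic stem cells (ESC) and epiblast like cells (EpiLC) was measured gene by gene in the RNA libraries that accompany a ribosome profiling experiment. The comparison took 3 EpiLC and 3 ESC total RNA libraries, 6 of the 12 libraries of the series, the other 6 being ribosome protected fragments (RPF) of the same 2 states. A gene was kept where at least 3 of these 6 libraries held 3 or more CPM, the counts of a gene scaled to a common library total, which left 11332 of the 22462 genes counted (50.4%). The labels name no line and no genotype. According to the study's methods, differentiation started from V6.5, a mouse ESC line used widely for gene targeting, in a derivative that carries fluorescent reporters of microRNA clusters. Which line gave each library is not stated in the sources used here. ESC were grown in medium with 15% serum, LIF and 2i, the 2 kinase inhibitors PD0325901 and CHIR99021 that hold cells in the naive state. For EpiLC, 400000 ESC were plated, LIF and 2i were taken away 24 h later, and the cells were collected about 56 h after that. The effects of removing LIF, of removing the inhibitors and of time in culture cannot be told apart. The study calls its replicates biological, but the sources used here do not say whether they came from separate cultures. If they did not, p-values measure only the spread between these samples, which may be technical.

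Naive ESC correspond to the epiblast of the blastocyst before implantation, a rounded group of cells held together without an apical face. After implantation the epiblast turns into a polarised epithelium with tight junctions around a lumen, changes its fuel use, and becomes able to answer the signals that start gastrulation. EpiLC model the first stretch of that passage. The naive and primed transcription factors are its best known part. The values below concern mainly what else changed: cytoskeleton, junctions, metabolism, signalling, immune and germline genes.

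Depth and the libraries themselves came first. The ESC total RNA libraries held between 11491044 and 13477432 counts and the EpiLC libraries between 6188838 and 14655015, so that 3 counts, taken here as the floor of detection, corresponded to between 0.205 and 0.485 CPM. The most abundant 10 genes took between 3.79% and 4.34% of the counts. One ESC library stood apart in the genes that rose: of the 1539 genes called higher in EpiLC, 1109 (72.1%) had their highest ESC value in replicate 2, against 34.3% of the genes not called. Among the 12 genes with the largest rises, the ESC replicate 2 library held a median of 9.17% of the mean EpiLC level (range 7.15% to 10.7%), replicate 3 held 2.90% and replicate 1 held 0.612%. Similarly, the 12 genes with the largest falls were at a median of 3.02% of the ESC level in EpiLC replicate 1, 0.456% in replicate 2 and 2.08% in replicate 3. In the RPF libraries the corresponding medians were between 0.0309% and 1.92% for the rises in ESC and between 0.764% and 4.92% for the falls in EpiLC. The cause of these residual levels was not tested. They set how large the largest fold changes could become, and fold changes that depended on one library are given with the value without it. Leaving out ESC replicate 2 raised the count of higher genes from 1539 to 1610 and that of lower genes from 1101 to 1137.

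**Figure D1:**
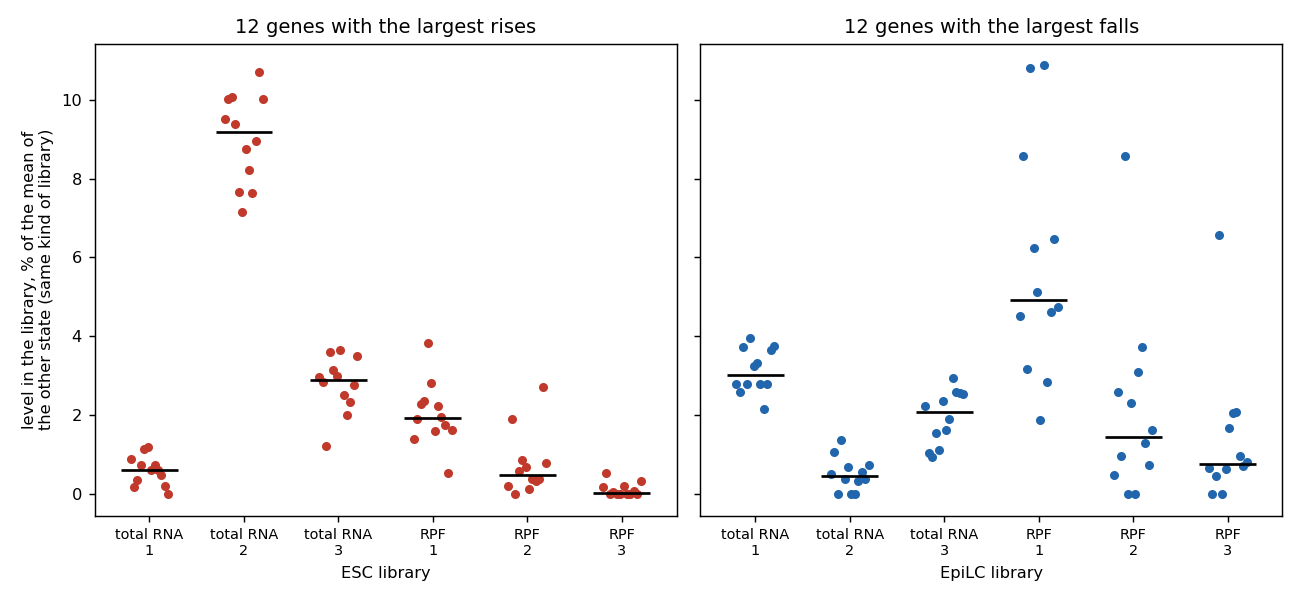
Level of the 12 genes with the largest rises in each ESC library (left) and of the 12 with the largest falls in each EpiLC library (right), as a percent of the mean of the 3 libraries of the other state and the same kind. Points are genes and bars are medians: ESC total RNA replicate 2 has a median of 9.17%, against 0.612% and 2.90% in the other two ESC total RNA libraries.

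The markers that define the 2 states followed the labels in every library. Zfp42, a zinc finger gene of naive cells, was at 404, 379 and 414 CPM in ESC and at 40.7, 28.1 and 37.8 CPM in EpiLC. Esrrb, a nuclear receptor of the naive network, was at 393, 348 and 378 CPM and at 15.2, 6.46 and 11.5 CPM in the same order, and Klf4 at 142, 128 and 146 CPM and 4.50, 0.970 and 3.27 CPM. Dnmt3b, a de novo DNA methyltransferase, rose from 99.5, 183 and 129.7 CPM to 1003, 1032 and 1107 CPM, and Otx2, a homeobox gene of the formative state, from 4.38, 7.83 and 5.48 CPM to 52.9, 48.3 and 44.8 CPM. Fgf5, the growth factor by which postimplantation epiblast is usually recognised, was at 0.0742, 2.15 and 0.261 CPM in ESC and 24.2, 21.2 and 18.7 CPM in EpiLC. None of the 6 overlapped between states, and ESC replicate 2 again held the highest ESC value of all 3 primed markers.

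Of the 11332 genes, 2640 (23.3%) were called changed in total RNA by limma with voom weights, at a Benjamini-Hochberg adjusted p under 0.05 and a log2 fold change above 1 or below -1. Higher in EpiLC were 1539 genes (13.6% of those tested) and lower were 1101 (9.72%). These shares are the background against which each group of genes below is read. Of the genes called higher 612, and of those called lower 406, had a mean under 3 CPM in the lower state. The filter kept these at least in part through the other state. The median log2 fold change was 1.81 among the genes called higher, of which 668 exceeded a log2 fold change of 2 and 118 one of 4, and -1.75 among those called lower, of which 460 lay beyond -2 and 128 beyond -4. The 3 ESC and 3 EpiLC values did not overlap for 1538 of the genes called higher and 1099 of those called lower. Non-overlap alone was common: it held for 8015 genes, 70.7% of those tested. Without the limit on fold change, 3792 genes were higher and 3829 lower at the same adjusted p. The median over all tested genes was -0.00723 on the log2 scale, close to 0. Unless stated otherwise, the values of each gene described below as rising or falling did not overlap between the states, and 3 values in a row are those of replicates 1, 2 and 3.

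The changed genes made up a small part of the counted mRNA in either state. Genes called higher took 2.76% ± 0.276 of the counts in ESC and 9.01% ± 0.166 in EpiLC (SD, n = 3). Genes called lower took 8.41% ± 0.295 in ESC and 2.51% ± 0.103 in EpiLC. Genes not called held 88.6% ± 0.0577 and 88.1% ± 0.265.

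**Figure D2:**
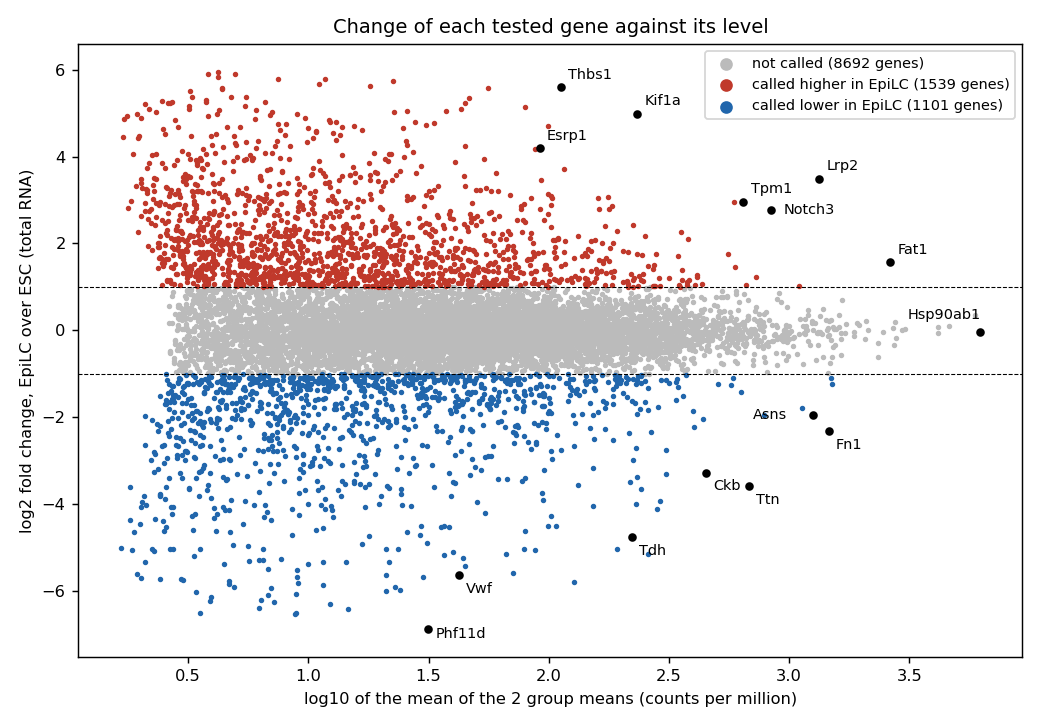
Log2 fold change in total RNA (EpiLC over ESC, vertical axis) against level (log10 of the mean CPM of both groups, horizontal axis) for the 11332 tested genes. Red and blue points are the 1539 genes called higher and the 1101 called lower, dashed lines mark a log2 fold change of 1 and -1, and a few named genes are marked in black.

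Among rises with at least 20 CPM in EpiLC, the 12 largest included genes of secreted and matrix proteins. Spon1, which encodes a secreted matrix protein first described in the floor plate, was at 0, 2.24 and 0.783 CPM in ESC and 25.5, 18.7 and 22.7 CPM in EpiLC, a log2 fold change of 5.77 ± 0.69 (± SE throughout, from limma; adjusted p = 8.15e-08). Has2, the main hyaluronan synthase of the embryo, was at 0.0742, 4.30 and 1.22 CPM and 43.2, 41.4 and 44.2 CPM. The log2 fold change of Has2, 5.75 ± 0.57, became 4.17 without ESC replicate 1 and 6.92 without ESC replicate 2, and that of Spon1 4.03 without ESC replicate 1 and 7.01 without ESC replicate 2. Thbs1, which encodes the matrix protein thrombospondin, rose from 1.04, 19.4 and 5.05 CPM to 252, 202 and 194 CPM. Enpp2, the secreted enzyme that makes lysophosphatidic acid, rose from 0.668, 8.26 and 2.18 CPM to 111, 97.8 and 115 CPM. In both, ESC replicate 2 stood far above the other ESC libraries, and the log2 fold changes of 5.59 and 5.58 were 4.42 without ESC replicate 1 and 6.59 without ESC replicate 2, and 4.63 without ESC replicate 1 and 6.47 without ESC replicate 2, respectively. Every library of EpiLC was nevertheless above every ESC library for all these genes.

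The other genes with such rises were of varied function. Car4, a membrane-bound carbonic anhydrase, was at 0.519, 7.49 and 3.13 CPM in ESC and 86.7, 95.3 and 75 CPM in EpiLC. Trim67, a ubiquitin ligase gene known mainly from the nervous system, was at 1.11, 14.3 and 5.48 CPM and 157, 163 and 137 CPM, and Sema3e, a secreted guidance cue, at 0.742, 7.83 and 2.44 CPM and 84.5, 82.1 and 80.3 CPM. Vrtn, named for its part in setting vertebra number in pigs, rose from 0.594, 3.53 and 1.48 CPM to 49.2, 47.0 and 51.8 CPM. Their log2 fold changes were 5.23 ± 0.41, 5.14 ± 0.37, 5.10 ± 0.36 and 5.06 ± 0.34. Leaving out a library gave 4.09 without ESC replicate 1 and 6.05 without ESC replicate 2 for Car4, 4.06 without ESC replicate 1 and 5.97 without ESC replicate 2 for Trim67, 4.19 without ESC replicate 1 and 5.92 without ESC replicate 2 for Sema3e and 4.38 without ESC replicate 1 and 5.67 without ESC replicate 2 for Vrtn. The remaining members of the 12 were Fgf5 (above), Fndc3c1, Sel1l3 and Zfp608. Zfp608 moved from 0.816, 5.51 and 2.26 CPM to 71.1, 75 and 69.5 CPM, Fndc3c1 from 0.668, 7.40 and 2.26 CPM to 92.5, 94.7 and 83.1 CPM, and Sel1l3 from 0.0742, 3.70 and 0.957 CPM to 38.6, 33.3 and 31.7 CPM. All 12 also rose in RPF, with log2 fold changes from 6.21 for Has2 to 8.64 for Enpp2. The size of these RPF values depends on the floor, since Enpp2 was at 2.48, 0.419 and 0 CPM in the ESC RPF libraries and Has2 at 0.621, 0.628 and 0.176 CPM. Leaving out 1 library at a time moved the log2 fold change in total RNA of Zfp608 to 4.29 without ESC replicate 1 and 5.70 without ESC replicate 2. That of Fndc3c1 was 4.41 without ESC replicate 1 and 6.17 without ESC replicate 2, that of Sel1l3 was 4.15 without ESC replicate 1 and 6.78 without ESC replicate 2, and that of Fgf5 was 4.70 without ESC replicate 1 and 6.86 without ESC replicate 2.

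The 12 largest falls, under the same limit of 20 CPM in ESC, included the naive transcription factors Klf4 and Prdm14 among genes of other kinds. Phf11d, an interferon inducible gene, fell from 64.8, 56.6 and 64.5 CPM to 2.32, 0 and 0.583 CPM, and its log2 fold change of -6.87 ± 0.58 was -5.49 without EpiLC replicate 2 and -8.12 without EpiLC replicate 1. Accsl, whose product resembles plant ethylene-forming enzymes, fell from 30.2, 28.7 and 27.4 CPM to 0.955, 0 and 0.466 CPM, and Prss35, a serine protease gene, from 26.0, 19.7 and 27.3 CPM to 0.682, 0 and 0.466 CPM. Vwf, which encodes von Willebrand factor, a clotting protein of blood vessels, was at 86.7, 81.0 and 80.7 CPM in ESC and at 2.32, 1.13 and 1.28 CPM in EpiLC, with a log2 fold change of -5.64 ± 0.29. In RPF the log2 fold change of Vwf was -3.58. Myh13, a myosin heavy chain gene named for extraocular muscle, was at 61.4, 52.8 and 61.6 CPM and then 1.64, 0.323 and 1.52 CPM.

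Jam2, a junctional adhesion molecule, fell from 274, 224 and 252 CPM to 6.96, 1.29 and 5.6 CPM, the most abundant of the 12 in ESC. Krt42, a type I keratin, fell from 49.8, 41.1 and 44.0 CPM to 1.16, 0.485 and 0.466 CPM, and Calcoco2, a receptor for autophagy of bacteria and mitochondria, from 86.0, 85.5 and 90.9 CPM to 3.27, 0.646 and 2.22 CPM. Prdm14, a regulator of naive cells and of germ cells, was at 43.6, 38.0 and 42.7 CPM and 1.64, 0.162 and 0.466 CPM. The log2 fold changes of these 4 were -5.80 ± 0.30, -5.91 ± 0.40, -5.43 ± 0.32 and -6.0 ± 0.46. Klf4 (above), Lrrc31 and Arl14epl completed the 12. As for Phf11d, a single library moved the fold by more than 1.5 times for 6 others: Accsl was -5.26 without EpiLC replicate 2 and -7.16 without EpiLC replicate 1, Prss35 -5.29 without EpiLC replicate 2 and -6.91 without EpiLC replicate 1, Prdm14 -5.33 without EpiLC replicate 2 and -6.89 without EpiLC replicate 1, Lrrc31 -4.95 without EpiLC replicate 2 and -6.33 without EpiLC replicate 1, Arl14epl -5.32 without EpiLC replicate 2 and -6.41 without EpiLC replicate 3 and Calcoco2 -4.96 without EpiLC replicate 2 and -6.02 without EpiLC replicate 1.

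In CPM, which is not scaled by gene length, Fat1, a giant protocadherin of epithelial borders, gained most, from 1215, 1408 and 1321 CPM to 4129, 3869 and 3844 CPM, a log2 fold change of 1.57 ± 0.05. Lrp2, the endocytic receptor megalin, rose from 148, 339 and 198 CPM to 2558, 2311 and 2462 CPM. Notch3 rose from 182, 270.2 and 189.9 CPM to 1556, 1324 and 1525 CPM, Tpm1, a tropomyosin, from 105, 204 and 142 CPM to 1189, 1126 and 1104 CPM, and Chd9, a chromatin remodeller, from 229.9, 275 and 239 CPM to 820.3, 894 and 874 CPM. Per 1000 nt of counted coding sequence the EpiLC level of Fat1 was 284 CPM and that of Tpm1 845 CPM, the reverse order of their totals. Lama5, Itgb1 and Dnmt3b completed the 8 largest gains. Lama5 stood near the limit, at 1.03, and was 0.997 without EpiLC replicate 1 and 1.07 without ESC replicate 2, so that without EpiLC replicate 1 it was not called. The largest loss was that of Fn1, fibronectin, from 2517, 2305 and 2449 CPM to 532, 440.5 and 504 CPM, a log2 fold change of -2.32 ± 0.06. Asns, asparagine synthetase, fell from 2106, 1969 and 1907 CPM to 554, 487 and 530.2 CPM and Aars, the alanine tRNA ligase, from 2023, 2040 and 2003 CPM to 979.6, 946 and 989 CPM.

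The remaining large losses came from structural and repair genes. Lamc1, the laminin chain common to most laminins, fell from 1733, 1679 and 1813 CPM to 561, 443 and 534 CPM. Msh6, a mismatch repair gene, fell from 2144, 2026 and 2115 CPM to 895, 901 and 929.8 CPM, a log2 fold change of -1.24 ± 0.04. Ttn, the muscle giant titin, fell from 1332, 1151 and 1284 CPM to 118, 93.4 and 102 CPM with a log2 fold change of -3.59 ± 0.08, and Ahnak, another giant protein of the cell cortex, from 1244, 1171 and 1301 CPM to 359.7, 341 and 285 CPM. Ckb, the creatine kinase that buffers ATP in brain, fell from 813, 778 and 856 CPM to 93.1, 69.5 and 91.9 CPM. All 8 were called lower without overlap, and their smallest log2 fold change was that of Aars, -1.08 ± 0.04. Per 1000 nt, Ttn in ESC was at 11.2 CPM and Ckb at 741 CPM.

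In a list of genes of actin filaments and contraction, rises were more frequent than the background. Of 38 tested members of this list 14 were called higher (36.8%, against 13.6% of all tested genes) and none lower, with a median log2 fold change of 0.53 beside -0.00723 for all genes. The other 24 were not called. Myh13 and Ttn, contractile genes outside this list, fell (above). The largest rises were those of smooth muscle genes. Acta2, smooth muscle actin, was at 0.816, 6.11 and 1.39 CPM in ESC and 59.1, 49.4 and 49.2 CPM in EpiLC, Cnn1, calponin, at 0.890, 6.11 and 2.00 CPM and 58.9, 56.7 and 61.2 CPM, and Tagln, transgelin, at 3.04, 17.7 and 7.31 CPM and 209, 202 and 154 CPM. Their log2 fold changes were 4.79 ± 0.36, 4.73 ± 0.33 and 4.70 ± 0.29, and became 4.13 without ESC replicate 1 and 5.59 without ESC replicate 2 for Acta2, 4.03 without ESC replicate 1 and 5.44 without ESC replicate 2 for Cnn1 and 4.0 without ESC replicate 1 and 5.32 without ESC replicate 2 for Tagln. Vcl, vinculin of focal adhesions, rose from 218, 269 and 254 CPM to 618, 581 and 546 CPM. Actb, the cytoplasmic beta actin, was at 4393, 4602 and 4318 CPM and 5401, 4255 and 4824 CPM and was not called. Fibroblasts are rich in several of these mRNAs. In the fibroblast marker list 7 of 11 tested genes were higher and 1 lower. The other 9 of its 20 counted genes, among them Col1a2, Col3a1, Thy1 and Postn, did not pass the filter. The summed level of the 20 was between 137 and 148 CPM in ESC and between 189 and 230 CPM in EpiLC, and Acta2 is itself a member. The part of such cells in the rise of the actin genes was not tested.

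Srf, the serum response factor, is itself an early response gene and binds CArG boxes in the promoters of actin and early response genes. Srf rose from 30.2, 44.3 and 35.6 CPM to 99.2, 95.2 and 94.1 CPM, a log2 fold change of 1.39 ± 0.10 (adjusted p = 1.59e-11). Of 15 tested immediate early genes 8 rose and none fell, among them Jun, from 3.49, 3.53 and 3.13 CPM to 22.2, 17.9 and 18.3 CPM, and Junb, from 6.97, 8.86 and 7.66 CPM to 25.1, 22.9 and 18.8 CPM. Zfp36, which promotes decay of mRNAs with AU-rich elements, was at 1.11, 1.38 and 1.22 CPM and 5.87, 8.72 and 5.25 CPM. Fos, Egr1 and 8 others of the list were counted but did not pass the filter. CArG boxes (CC, then 6 bases that are A or T, then GG, a pattern that reads alike on both strands) were looked for in RefSeq promoters, 250 bases before to 50 after each start on GRCm38.p6, keeping boxes that lay at least 10 bases upstream of the start. They were present in 93 of the 8972 promoters matched to tested genes (1.04%), in 7 of 33 promoters of the actin list (21.2%) and in 2 of 14 of the early response list (14.3%). The list and the motif were chosen with the changes known, so the shares are a description. Of members called higher, boxes lay in 4 of 12 matched promoters of the actin list and 2 of 8 of the early response list. Acta2, Cnn1 and Tagln, the largest rises of the actin list, were not among the genes with a box found. The actin list held 14 members called higher, of which 12 had a matched promoter, so these genes cannot all lack one. Which of them had a promoter without a box is not told apart here. Windows of the called-higher members with a box follow, box in capitals, 30 bases each and 5′ to 3′ on the strand of the gene:
Acta1 (chr8:123894829-123894858, minus strand, 63 bases between box and start): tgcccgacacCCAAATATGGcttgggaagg
Myl9 (chr2:156775293-156775322, plus strand, 151 bases between): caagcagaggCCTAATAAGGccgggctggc
Cnn2 (chr10:79988534-79988563, plus strand, 46 bases between): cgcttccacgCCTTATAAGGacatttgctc
Vcl (chr14:20929161-20929190, plus strand, 217 bases between): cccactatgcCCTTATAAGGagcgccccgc
Zfp36 (chr7:28379267-28379296, minus strand, 48 bases between): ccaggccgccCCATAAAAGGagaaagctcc
Srf, first box (chr17:46556225-46556254, minus strand, 72 bases between): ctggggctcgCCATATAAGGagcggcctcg
Srf, second box (chr17:46556205-46556234, minus strand, 52 bases between): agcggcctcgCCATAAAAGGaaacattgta

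The genes that carry these boxes differed in how far they moved. Acta1, skeletal muscle actin, was at 0.445, 2.41 and 1.39 CPM in ESC and 28.7, 19.07 and 29.4 CPM in EpiLC, and Myl9, a regulatory light chain of myosin, at 2.82, 6.54 and 4.09 CPM and 58.2, 48.8 and 47.7 CPM. Cnn2 rose from 34.4, 52.9 and 46.0 CPM to 185, 160.3 and 156 CPM. Their log2 fold changes were 4.49 ± 0.40, 3.62 ± 0.21 and 1.93 ± 0.11, and that of Acta1 was 3.78 without ESC replicate 1 and 5.0 without ESC replicate 2. Boxes also lay upstream of 3 members that were not called, Vil1, Actg1 and Fhl1, with log2 fold changes of 0.30, 0.28 and 0.47. A box in this window therefore went with a rise in some members and not in others.

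**Figure D3:**
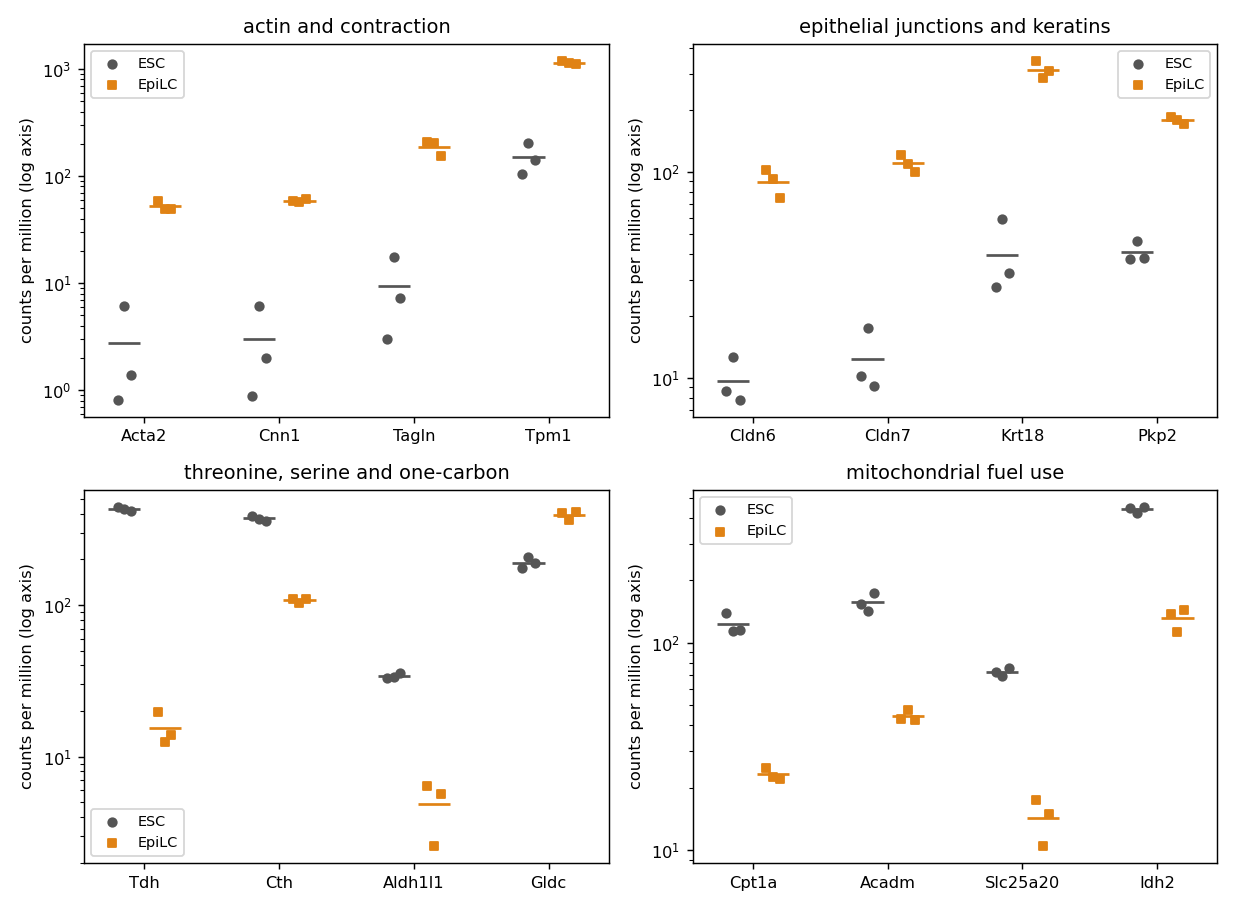
CPM (log axis) of 16 genes in each of the 3 ESC (grey circles) and 3 EpiLC (orange squares) total RNA libraries, with horizontal bars at the group means. The actin and junction genes are higher in every EpiLC library than in any ESC library, and among the metabolic genes all but Gldc are lower.

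Genes of epithelial junctions rose more often than they fell. Of 21 tested tight junction and polarity genes 9 rose and 1 fell (median log2 fold change 0.69), and of 15 desmosome and keratin genes 9 rose and 2 fell (median 1.43). The keratin gene Krt17, outside this list, was called lower, with a log2 fold change of -4.07. Claudins seal the space between epithelial cells. Cldn6 rose from 8.61, 12.6 and 7.83 CPM to 103, 91.9 and 74.8 CPM and Cldn7 from 10.2, 17.6 and 9.14 CPM to 121, 109 and 100.2 CPM, while Jam2 fell (above). Krt18, the partner of Krt8 in simple epithelia, rose from 27.5, 58.8 and 32.2 CPM to 346, 286 and 307 CPM, and Krt8 from 22.5, 26.5 and 25.2 CPM to 61.9, 49.4 and 53.6 CPM. Pkp2, a desmosomal plaque gene, rose from 37.7, 46.4 and 38.2 CPM to 185, 178 and 171 CPM, and Dsg2, a desmosomal cadherin, fell from 215, 203 and 220.5 CPM to 103, 89.0 and 94.5 CPM. Krt18 and Krt8 also mark trophectoderm, and that list as a whole is described below.

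Of 19 counted gap junction genes, the connexins, 4 passed the filter, of which 1 rose and 3 fell (median log2 fold change -2.61). Connexins form channels that pass small molecules between cells. Gja1, connexin 43, rose from 28.0, 45.6 and 31.1 CPM to 296, 291 and 270.2 CPM, a log2 fold change of 3.05 ± 0.11 (adjusted p = 3.48e-17). In contrast, Gjb5 fell from 22, 22.8 and 26.2 CPM to 1.16, 1.62 and 1.40 CPM and Gjc1 from 103, 97.0 and 105 CPM to 46.8, 54.9 and 46.1 CPM. The sum over all 19 counted connexins stayed between 315 and 327 CPM in ESC and between 329 and 356 CPM in EpiLC. The ranges of the sums nearly met while the members parted.

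Targets of the YAP and TAZ coactivators, which respond to stretch and density, rose more often than the background. Of 17 tested genes 8 were higher (47.1%, against 13.6% of all tested genes) and 2 lower (11.8%, against 9.72%). The median log2 fold change was 0.99. Ccn1, a matricellular gene commonly used as a readout, rose from 14.5, 26.9 and 24.4 CPM to 191, 188 and 167 CPM, and Igfbp3 from 2.89, 6.88 and 4.53 CPM to 90.3, 78.8 and 86.3 CPM. Myof, a membrane repair gene, fell from 302, 264 and 296 CPM to 19.7, 15.5 and 16.9 CPM, a log2 fold change of -4.03 ± 0.11. Tetraspanins, small membrane proteins that organise surface complexes, showed 6 higher and 1 lower of 18. Cd9, known from egg and sperm fusion, was the one that fell, from 237, 201 and 220.1 CPM to 41.6, 33.1 and 29.7 CPM. Of the protocadherins outside the clusters Pcdh1 rose from 7.57, 17.7 and 10.4 CPM to 112, 93.2 and 103 CPM, and none of the 6 tested clustered protocadherins was called.

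**Figure D4:**
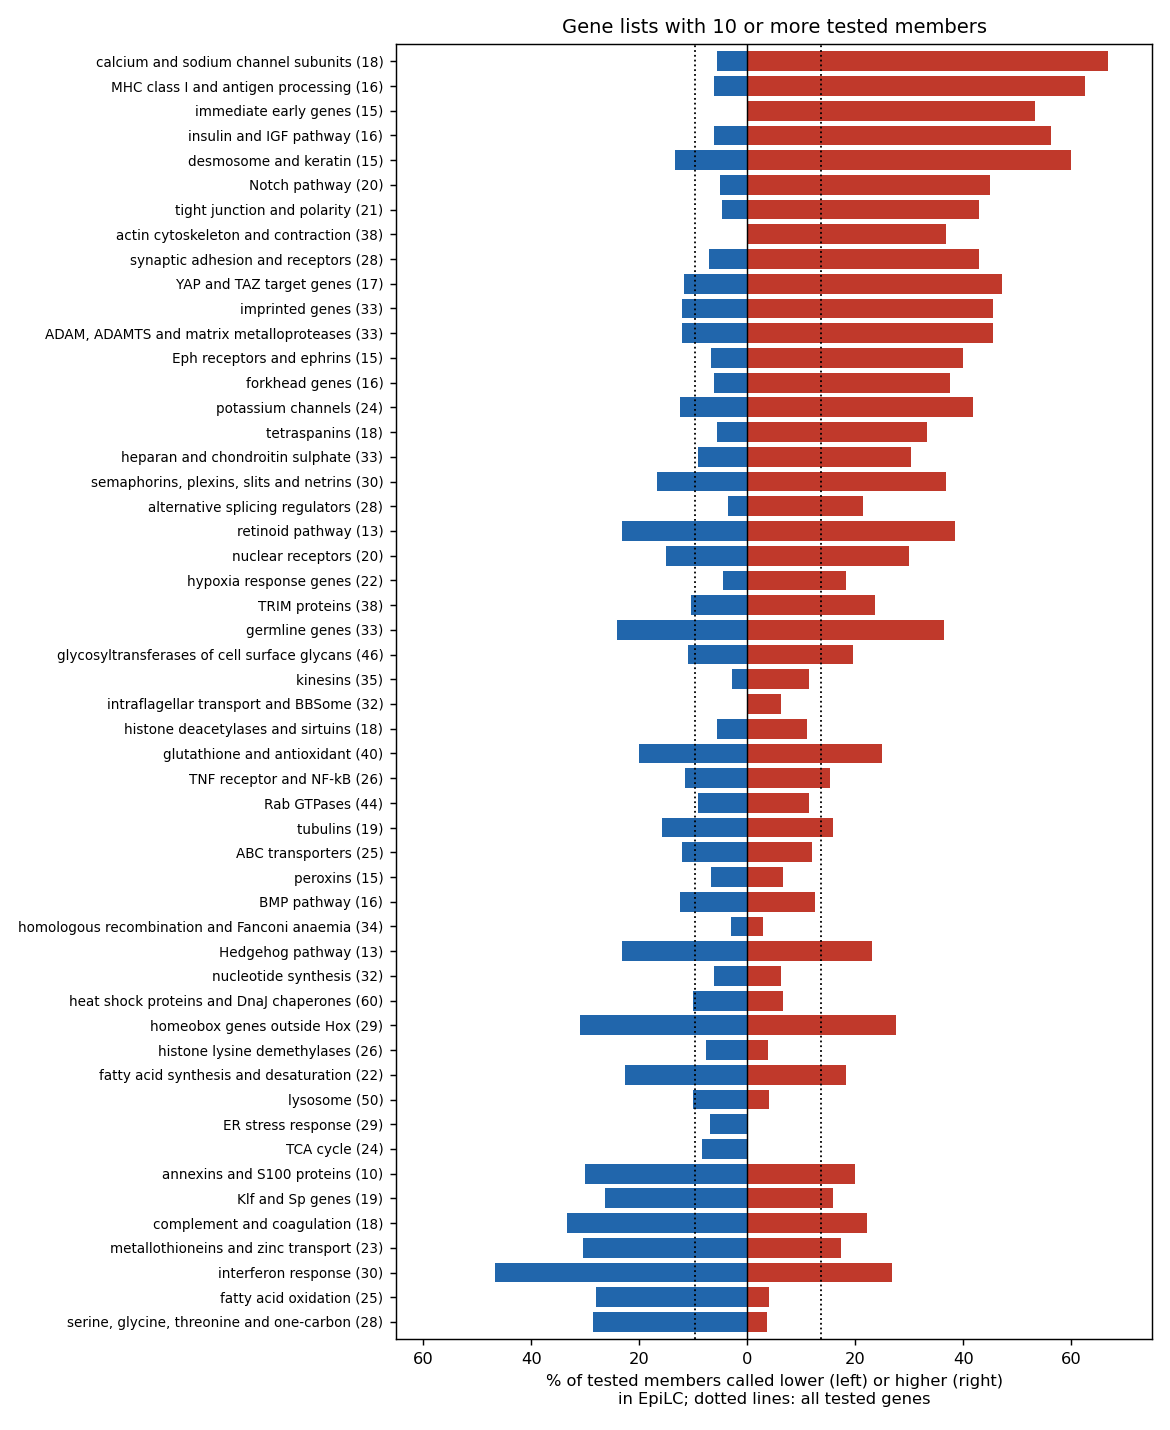
Share of tested members called higher (red, right) or lower (blue, left) in EpiLC total RNA, for each gene list with 10 or more tested members (number in brackets), marker lists of other cells left out. Dotted lines mark the shares over all tested genes, 13.6% higher and 9.72% lower.

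Among tested members, genes best known from neurons rose more often than the background of 13.6%, mostly from low levels. Of 18 tested calcium and sodium channel subunits 12 rose and 1 fell (median log2 fold change 1.69), of 24 potassium channel genes 10 rose and 3 fell (median 0.68), and of 28 synaptic adhesion and receptor genes 12 rose and 2 fell (median 0.66). These were 18 of 40, 24 of 92 and 28 of 56 counted members. A gene near 0 in ESC passed the filter only through its EpiLC level, so it could be tested only as a rise. Cacna1b, the pore of N-type calcium channels, rose from 1.19, 4.39 and 2.96 CPM to 47.9, 51.1 and 46.4 CPM. Cacna1g, a T-type channel, rose from 2.23, 4.22 and 1.57 CPM to 48.5, 38.6 and 36.9 CPM. Scn3a, a sodium channel, ran the other way, from 36.4, 32.4 and 34.3 CPM to 0.887, 1.94 and 1.63 CPM. Kcnk1, a leak potassium channel, rose from 18.8, 27.0 and 19.15 CPM to 133, 127 and 116 CPM.

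Neural markers moved in both directions. In that list 3 of 7 tested genes rose (Pax6, Nes and Map2) and 1 fell (Ncam1), with 14 of 21 below the filter. Nes, an intermediate filament of neural progenitors, rose from 46.7, 63.4 and 51.6 CPM to 314, 315 and 235 CPM, and Ncam1 fell from 72.3, 66.8 and 85.6 CPM to 11.2, 10.2 and 11.5 CPM. The summed level of the neural list was between 221 and 251 CPM in ESC and between 340 and 416 CPM in EpiLC. Whether neural cells had part in the channel and synapse genes was not tested.

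Among motor and microtubule genes a few changed by a large fold. Kif1a, the kinesin that carries synaptic vesicle precursors, rose from 4.97, 37.0 and 16.3 CPM to 468, 435 and 438 CPM, a log2 fold change of 4.99 ± 0.29 that was 4.16 without ESC replicate 1 and 5.67 without ESC replicate 2. Of the 35 tested genes named as kinesins 4 rose (11.4%) and 1 fell (2.86%, none without EpiLC replicate 1). Both shares were under the background of 13.6% higher and 9.72% lower, and the family median was -0.03. Kif21a rose from 16.6, 23.1 and 17.7 CPM to 136, 135 and 131 CPM. In the tubulin list 3 of 19 tested genes rose and 3 fell, 15.8% each beside that background, and 13 were not called. Tubb6 rose from 132, 147 and 138 CPM to 360.4, 328 and 316 CPM and Tuba1a from 21.7, 32.0 and 27.6 CPM to 79.8, 70.5 and 64.4 CPM. Tubb2b fell from 142, 159 and 161 CPM to 51.0, 49.3 and 47.3 CPM. Tubulin paralogues are nearly identical in sequence and only reads with a single best place were counted, so their levels carry that uncertainty. Of the 32 tested genes of intraflagellar transport and the BBSome, which build cilia, 2 rose (6.25%, also under the background) and none fell. Ttc21b, one of the 2, rose from 15.1, 20.7 and 15.3 CPM to 104, 107 and 109 CPM.

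Guidance genes rose more often than the background of 13.6%. Of 30 tested semaphorins, plexins, slits, netrins and their receptors 11 rose (36.7%) and 5 fell (16.7%), and of 15 Eph receptors and ephrins 6 rose (40.0%) and 1 fell (6.67%, under the background of 9.72%). Sema6a rose from 11.6, 20.2 and 12 CPM to 143, 121 and 105 CPM and Sema3c from 5.04, 8.95 and 5.22 CPM to 64.4, 68.5 and 56.4 CPM. Ntn1, netrin, fell from 57.5, 57.0 and 70.9 CPM to 7.30, 3.23 and 3.96 CPM. Among Eph genes, Epha1 rose from 4.53, 11.6 and 6.35 CPM to 86.5, 81.9 and 74.3 CPM, Efnb2, an ephrin ligand, from 1.93, 5.25 and 2.18 CPM to 35.9, 34.6 and 35.5 CPM, and Epha4 fell from 84.6, 59.7 and 77.1 CPM to 3.62, 2.58 and 3.15 CPM. Epha4 had been the most abundant of those 3 in ESC and became the least abundant.

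Notch genes rose more often than the background. In the Notch pathway 9 of 20 tested genes rose, 1 fell and 10 were not called. The summed level of its 27 counted genes went from between 851 and 979 CPM to between 2418 and 2803 CPM. Notch3 (above) made up the largest part of the EpiLC sum. Receptors differed from each other. Notch3 and Notch2 rose, Notch2 from 185, 196 and 189 CPM to 468, 376 and 491 CPM, Notch4 fell from 9.87, 9.72 and 13.7 CPM to 1.30, 2.75 and 1.40 CPM, and Notch1, at 165, 178 and 183 CPM and 183, 169 and 179 CPM, overlapped between states. Ligands Dll1, Dll3 and Jag2 rose, Dll1 from 0.668, 1.46 and 1.13 CPM to 7.03, 11.5 and 12.1 CPM. Hes1, a direct target of the pathway, was at 35.8, 37.0 and 38.3 CPM and 37.9, 33.5 and 34.4 CPM and was not called, and the targets Hes5, Hey1 and Hey2 lay below the filter.

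Among insulin and insulin-like growth factor genes, rises reached from receptors to adaptors. Of 16 tested genes 9 rose and 1 fell, with a median log2 fold change of 1.46. Insr, the insulin receptor, rose from 48.1, 53.2 and 47.4 CPM to 146, 146 and 138 CPM and Igf1r from 86.1, 90.7 and 78.2 CPM to 238, 224 and 223 CPM, log2 fold changes of 1.51 ± 0.08 and 1.40 ± 0.07. The adaptors Irs1 and Irs4 rose from 2.89, 5.94 and 2.96 CPM to 42.4, 36.4 and 32.5 CPM and from 0.297, 1.81 and 0.696 CPM to 19.5, 17 and 20.5 CPM. The log2 fold change of Irs4, 4.66, was 4.01 without ESC replicate 1 and 5.28 without ESC replicate 2. Igf2, the ligand, rose but stayed low, from 1.41, 1.46 and 1.92 CPM to 8.26, 4.04 and 3.96 CPM.

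Hedgehog, retinoid and BMP genes changed in both directions within each pathway. Smo, the Hedgehog signal transducer, rose from 58.6, 67.5 and 59.0 CPM to 241, 203 and 247 CPM and Gli3, mainly a repressor, from 28.7, 28.3 and 28.7 CPM to 79.7, 76.4 and 77.4 CPM, while the activators Gli2 and Gli1 fell, Gli2 from 88.2, 82.4 and 92.7 CPM to 22.6, 17.3 and 17.8 CPM and Gli1 from 12.7, 12.3 and 11.6 CPM to 3.55, 2.75 and 4.66 CPM. In all, 3 of 13 Hedgehog genes rose and 3 fell. For retinoids, 5 of 13 rose and 3 fell. Rarg, a retinoic acid receptor, rose from 30.7, 35.4 and 34.8 CPM to 110.2, 113 and 107 CPM, and the binding proteins parted, Crabp2 rising from 2.08, 2.5 and 2.52 CPM to 18.2, 11.6 and 19.8 CPM and Crabp1 falling from 16.7, 19 and 16.4 CPM to 8.94, 6.79 and 7.46 CPM. Of 16 BMP pathway genes 2 rose, the targets Id1 and Id3, and 2 fell, the antagonists Chrd and Fst. These shares, 12.5% each way, were near the background of 13.6% higher and 9.72% lower. Without EpiLC replicate 2, 1 gene of this list fell. Id1, an inhibitor of helix-loop-helix factors, was at 2.97, 4.73 and 2.61 CPM in ESC and 22.2, 18.4 and 20.1 CPM in EpiLC. Among 22 hypoxia response genes 4 rose and 1 fell, a share of 18.2% higher, with a median of 0.065.

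Several metabolic lists lost members more often than the background. Threonine dehydrogenase feeds mouse ESC with glycine and acetyl-CoA, a trait of the naive state in this species. Its gene Tdh fell from 441, 428 and 418 CPM to 19.6, 12.6 and 14 CPM, a log2 fold change of -4.76 ± 0.12 (adjusted p = 2.14e-19). In the list of serine, glycine, threonine and one-carbon genes 8 of 28 tested members fell (28.6%, against 9.72% of all genes) and 1 rose, with a median of -0.303. Cth, which makes cysteine from cystathionine, fell from 389, 368 and 358 CPM to 110.3, 103 and 109 CPM, and Shmt2, the mitochondrial serine hydroxymethyltransferase, from 326, 316 and 313 CPM to 149, 139 and 149 CPM. Gldc, the decarboxylase of the glycine cleavage system, was the one that rose, from 174, 206 and 189 CPM to 402, 363 and 409 CPM, whereas Amt, another enzyme of that system, fell. The rise of Gldc lay at the limit, a log2 fold change of 1.02, and was 0.96 without ESC replicate 1 and 1.09 without ESC replicate 2. It was also under the limit without EpiLC replicate 3. The list held no rise without ESC replicate 1 or without EpiLC replicate 3, and 2 without each of ESC replicates 2 and 3 and EpiLC replicate 2. Phgdh, the first step of serine synthesis, overlapped between states at 93.6, 97.4 and 80.8 CPM and 104, 76.9 and 111 CPM. Psat1, the second step, was not called at 648, 695 and 653 CPM and 514, 437 and 487 CPM.

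In fatty acid oxidation 7 of 25 tested genes fell (28.0%) and 1 rose, with a median of -0.476. Cpt1a, the gate for entry of long chains into mitochondria, fell from 138, 114 and 115 CPM to 24.9, 22.6 and 22.2 CPM, and Slc25a20, the carnitine carrier that works after it, from 72.0, 69.3 and 75.3 CPM to 17.5, 10.5 and 15.0 CPM. Acadm, the medium chain dehydrogenase, fell from 153, 142 and 174 CPM to 42.9, 47.3 and 42.5 CPM. Acadl, the long chain dehydrogenase, rose from 34.8, 37.5 and 34.5 CPM to between 94.7 and 108 CPM. The summed level of the list was between 1509 and 1574 CPM in ESC and between 1068 and 1084 CPM in EpiLC. Of the TCA cycle 2 of 24 genes fell and none rose, yet the median was -0.349 and the sum went from between 4818 and 4910 CPM to between 3721 and 3893 CPM. Idh2, the mitochondrial isocitrate dehydrogenase that uses NADP, fell from 444, 423 and 449.7 CPM to 138, 113 and 143 CPM.

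Lipid and nucleotide synthesis changed in both directions. In fatty acid synthesis and desaturation 4 of 22 rose and 5 fell, with the acyl-CoA synthetases Acsl4 and Acsl5 among the rises, Acsl4 from 45.3, 47.6 and 45.6 CPM to 164, 172 and 155 CPM, and the acetyl-CoA carboxylase Acacb among the falls, from 138, 131 and 158 CPM to 53.6, 48.1 and 47.6 CPM. Of 32 nucleotide synthesis genes 2 rose and 2 fell, shares of 6.25% each and below the background. Without ESC replicate 2, 1 gene rose. Upp1, uridine phosphorylase, fell from 399, 398 and 396 CPM to 63.5, 49.0 and 72.9 CPM, a log2 fold change of -2.71 ± 0.09. Prps2, which makes phosphoribosyl pyrophosphate, rose from 14, 14.7 and 10.8 CPM to 55.1, 49.9 and 59.2 CPM. The pentose phosphate pathway had no called gene among 8, and its most abundant member Tkt was at 1010, 1020 and 1014 CPM and 918, 831 and 917 CPM.

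Redox and metal genes changed in both directions. Of 40 glutathione and antioxidant genes 10 rose and 8 fell. Gclm, a subunit of the first enzyme of glutathione synthesis, rose from 51.8, 54.6 and 54.0 CPM to 136, 167 and 136 CPM, and Gss, the second enzyme, fell from 76.9, 67.5 and 78.9 CPM to 23.1, 20.2 and 20.9 CPM. Sod2, mitochondrial superoxide dismutase, fell from 257, 246 and 246 CPM to 71.7, 62.4 and 73.3 CPM, and Gpx4, which guards membranes against lipid peroxides, from 79.2, 71.9 and 80.4 CPM to 27.9, 19.6 and 27.4 CPM. Among 23 metallothionein and zinc transport genes 7 fell and 4 rose. Mt2, a metallothionein, fell from 137, 106 and 118 CPM to 28.9, 27.8 and 24.1 CPM, and of the zinc importers Slc39a4 fell from 83.9, 73.4 and 83.0 CPM to 18.8, 13.6 and 15.3 CPM while Slc39a14 rose from 7.79, 11.1 and 8.88 CPM to 40.6, 35.9 and 39.6 CPM.

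Of 50 tested lysosome genes 2 rose and 5 fell, a share close to the background of 9.72%, with a median of -0.054. Without ESC replicate 2, 5 genes rose, and without ESC replicate 3, 1 did. Tfeb, a master activator of lysosomal genes, fell from 30.9, 28.5 and 30.3 CPM to 3.89, 3.39 and 5.01 CPM, and Mitf from 21.8, 21.0 and 23.2 CPM to 2.05, 1.13 and 1.05 CPM, log2 fold changes of -2.89 ± 0.20 and -3.89 ± 0.31. Tfe3, a related activator, was at 36.1, 34.4 and 32.7 CPM and 49.7, 45.2 and 43.0 CPM and was not called. Ctsd, a major lysosomal protease, was at 59.8, 67.1 and 61.8 CPM and 67.1, 69.2 and 60.0 CPM. Manba, beta-mannosidase, was one of 3 enzymes that fell, from 139, 130.2 and 129 CPM to 26.4, 19.7 and 28.6 CPM.

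Enzymes that build the sugar coat of the cell changed member by member. Of 46 tested glycosyltransferases 9 rose (19.6%) and 5 fell (10.9%), and of 33 heparan and chondroitin sulphate genes 10 rose (30.3%) and 3 fell (9.09%). The background was 13.6% higher and 9.72% lower. Galnt3, which starts mucin-type glycans, rose from 2.23, 5.51 and 3.57 CPM to 38.4, 40.1 and 35.8 CPM and its relative Galnt6 fell from 76.9, 69.4 and 72.6 CPM to 5.80, 3.07 and 6.65 CPM. Chst15, a chondroitin sulphotransferase, rose from 3.86, 8.86 and 3.83 CPM to 76.5, 72.4 and 78.7 CPM, and Gpc1, a glypican, from 37.4, 41.1 and 42.0 CPM to 144, 126 and 131 CPM. St8sia1, a sialyltransferase, fell from 14.5, 12.6 and 13 CPM to 1.09, 0.162 and 0.816 CPM, and its log2 fold change of -4.37 was -3.75 without EpiLC replicate 2 and -4.89 without EpiLC replicate 1. Matrix proteases of the ADAM, ADAMTS and MMP families and their inhibitors rose in 15 of 33 tested genes (45.5%) and fell in 4 (12.1%). The other 51 of the 84 counted members did not pass the filter. A member near 0 in ESC passed only through its EpiLC level, so it could be tested only as a rise. Mmp25 rose from 1.71, 4.22 and 2.18 CPM to 42.9, 39.8 and 34.8 CPM. The inhibitor Timp1 fell from 36.8, 31.8 and 30.9 CPM to 10.1, 4.52 and 7.46 CPM.

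Immune genes of antigen presentation mostly rose, and those of the interferon response fell more often than they rose. Of 16 tested genes of MHC class I and antigen processing 10 rose and 1 fell, with a median of 1.62. Tap1, a subunit of the peptide transporter, rose from 3.49, 7.06 and 3.22 CPM to 28.7, 24.1 and 25.6 CPM, and Erap1, a trimming peptidase, from 2.89, 4.22 and 4.0 CPM to 23.6, 21.8 and 23.7 CPM. H2-K1, a classical class I heavy chain, rose from 31.2, 42.0 and 35.9 CPM to 86.1, 76.3 and 81.4 CPM, and B2m, its light chain, from 12, 16.7 and 11.6 CPM to 37.5, 28.9 and 27.3 CPM. Class I genes are close relatives, so assignment of reads between them is uncertain. The interferon response list, in contrast, had 14 of 30 tested genes lower (46.7%) and 8 higher, with a median of -0.80. Oas1a, an antiviral sensor of double-stranded RNA, fell from 18.2, 18.7 and 15.8 CPM to 0.205, 0.162 and 0.700 CPM, and Trim25, a ligase of that response, from 151, 141 and 149 CPM to 32.5, 33.9 and 32.4 CPM. Bst2, tetherin, rose from 60.9, 70.4 and 59.6 CPM to 217, 199 and 219.8 CPM and Irf1, which activates class I genes, from 16.8, 23.6 and 22.2 CPM to 59.2, 56.4 and 53.8 CPM. Oasl2 rose from 0, 0.774 and 0.522 CPM to 12.9, 10.5 and 8.40 CPM, its log2 fold change of 5.38 being 3.97 without ESC replicate 1 and 6.21 without ESC replicate 2. Of the cell surface regulators of complement, Cd55 fell from 11.7, 10.9 and 11.1 CPM to 2.18, 2.42 and 3.15 CPM, and in complement and coagulation as a whole 6 of 18 fell and 4 rose.

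Germline genes rose and fell side by side. Of 33 tested, 12 rose and 8 fell. Ddx4, the germ cell helicase Vasa, rose from 21.1, 23.7 and 17.1 CPM to 74.5, 80.8 and 73.2 CPM, Sycp3, of the meiotic chromosome axis, from 7.57, 8.18 and 7.83 CPM to 28.9, 43.1 and 32.4 CPM, and Tdrd5, of the piRNA pathway, from 3.71, 5.25 and 2.44 CPM to 28.9, 32.8 and 28.6 CPM. Tex14, of the bridges between germ cells, fell from 153, 137 and 136 CPM to 13.4, 12.4 and 13.1 CPM. Rpl10l, a retroposed ribosomal protein gene of testis, fell from 28.6, 26.3 and 22.4 CPM to 4.50, 5.01 and 5.48 CPM, and shares sequence with its parent gene. Among markers of primordial germ cells 6 of 10 fell and 1 rose, Fgf8 (2 without ESC replicate 1 or without EpiLC replicate 2), and their sum went from between 852 and 919 CPM to between 164 and 194 CPM. Kit, a receptor of germ cells and naive cells, fell from 406, 366 and 418 CPM to 50.6, 44.8 and 56.6 CPM.

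Imprinted genes rose more often than they fell, 15 of 33 tested rising and 4 falling, with a median of 0.71. Peg10, a retrotransposon-derived gene of placenta, rose from 56.8, 73.1 and 66.0 CPM to 325, 325 and 312 CPM, and Cdkn1c, a growth inhibitor, from 1.78, 2.41 and 2.00 CPM to 24.7, 21.0 and 21.1 CPM. Ddc, which makes dopamine and serotonin, fell from 72.0, 67.8 and 71.9 CPM to 3.27, 2.42 and 3.50 CPM, and Plagl1, a zinc finger regulator, from 96.6, 80.4 and 89.0 CPM to 10.4, 10.8 and 9.33 CPM. Since these are total levels, which parental allele was read is not known.

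The X chromosome held a larger share of rises than the autosomes. Of its 364 tested genes 24.2% were called higher and 6.87% lower, and its median log2 fold change was 0.18. On the autosomes the shares were 13.2% and 9.82% and the median -0.01. Single autosomes ranged from 8.41% higher (chromosome 16) to 16.5% higher (chromosome 3). In RPF the X share was 25.3% against 14.1% on autosomes. Correction for GC content of the coding sequence left it at 23.9% against 12.7%. Rlim, Stag2 and Map3k15, chosen after their values were seen, rose from 144, 179 and 154 CPM to 527, 532 and 535 CPM, from 190.0, 214 and 181 CPM to 488, 557 and 515 CPM and from 10.8, 26.9 and 14.4 CPM to 209, 219.9 and 211 CPM. Genes on a chromosome are not independent, and no test of the share was made.

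Transcription factor families changed in both directions. In those families, of 29 tested homeobox genes outside the Hox clusters 8 rose and 9 fell, of 20 nuclear receptors 6 rose and 3 fell, and of 16 forkhead genes 6 rose and 1 fell. Zeb1, a repressor known from epithelial to mesenchymal transition, fell from 26.6, 22.6 and 35.7 CPM to 2.52, 2.58 and 2.45 CPM. Of 39 Hox genes 1, Hoxc12, passed the filter, and it fell. Foxp1 rose from 7.87, 12.1 and 11.4 CPM to 36.7, 38.5 and 36.9 CPM. Nr3c1, the glucocorticoid receptor, rose from 14.5, 13.4 and 13.1 CPM to 33.7, 39.6 and 39.1 CPM. Of 19 Klf and Sp genes 5 fell and 3 rose. Klf6, an early response factor, rose from 35.5, 45.5 and 37.5 CPM to 127, 119 and 122 CPM.

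RNA regulators included a few with large change. Of 28 tested regulators of alternative splicing and related RNA binding genes 6 rose and 1 fell, with no fall without ESC replicate 3 and 2 falls without ESC replicate 2 or EpiLC replicate 1. Esrp1, which drives epithelial splice forms, rose from 4.97, 18.8 and 9.14 CPM to 179.7, 175 and 162 CPM, a log2 fold change of 4.19 ± 0.21 (adjusted p = 2.50e-14). Lin28a, which blocks let-7 maturation, rose from 64.7, 83.7 and 71.1 CPM to 296, 325 and 274 CPM. By comparison, 34 genes of homologous recombination and Fanconi anaemia held 1 rise and 1 fall. Fanci fell from 310.3, 283 and 291 CPM to 111, 109.6 and 112 CPM and Rad50 rose from 90.2, 96.2 and 82.4 CPM to 178, 186 and 212 CPM, its log2 fold change of 1.06 being 0.99 without EpiLC replicate 3 and 1.12 without EpiLC replicate 1, so that its call was lost without EpiLC replicate 3. Histone demethylases (1 rise and 2 falls of 26) and deacetylases with sirtuins (2 rises and 1 fall of 18) also had smaller shares than the background in both directions. Without ESC replicate 3, 1 demethylase gene fell, and without ESC replicate 1 no gene of the deacetylase list did.

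Heat shock, ER stress and Rab genes were called at rates near or under the background. Of 60 heat shock and DnaJ genes 4 rose and 6 fell, of 29 ER stress genes none rose and 2 fell (1 without EpiLC replicate 2 or 3), and of 44 Rab GTPases 5 rose and 4 fell. Hspb1, a small heat shock protein, fell from 69.2, 58.4 and 65.6 CPM to 19.8, 16.5 and 16.6 CPM. Trib3, a pseudokinase induced by amino acid shortage, fell from 29.2, 36.1 and 26.8 CPM to 15.2, 16.5 and 9.91 CPM, and its log2 fold change of -1.18 was -0.99 without EpiLC replicate 3 and -1.33 without EpiLC replicate 1, so that its call was lost without EpiLC replicate 3. Of the TRIM ubiquitin ligases 9 of 38 rose (23.7%, above the background) and 4 fell, of ABC transporters 3 of 25 rose and 3 fell, and of TNF receptor and NF-kB genes 4 of 26 rose and 3 fell. Small lists had larger shares of falls than the background of 9.72%, with 3 of 9 serpins, 3 of 10 annexins and S100 proteins and 2 of 4 galectins, beside 2, 2 and 0 rises. Of 15 peroxins 1 rose and 1 fell, and without ESC replicate 1, EpiLC replicate 2 or EpiLC replicate 3 none fell, while 2 fell without EpiLC replicate 1. Lgals3, galectin 3, fell from 26.3, 23.2 and 22.7 CPM to 6.89, 5.66 and 6.06 CPM.

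Markers of other cell types were checked over whole lists. Of 20 primitive endoderm markers 8 passed the filter, 5 rose and 2 fell. Their summed level was between 1284 and 1322 CPM in ESC and between 1510 and 1631 CPM in EpiLC, carried by basement membrane genes such as Lamb1, which rose from 126, 161 and 138 CPM to 635, 594 and 614 CPM. Gata6, Gata4 and Sox17, which define that lineage, did not pass. Of 16 trophectoderm markers 9 passed, of which 3 keratins rose and 5 genes fell. The summed level of the 16 was between 174 and 206 CPM in ESC and between 360 and 442 CPM in EpiLC. The defining factors Cdx2 and Elf5 were at or near 0 in all 6 libraries. Of 21 primitive streak and mesoderm markers 5 passed, of which Fgf8 and Wnt3 rose and Gsc, Lefty2 and Eomes fell. Fgf8 was at 0.223, 2.24 and 1.39 CPM and 21.8, 20.5 and 16.4 CPM, and its log2 fold change of 4.43 was 3.42 without ESC replicate 1 and 5.06 without ESC replicate 2. Of 17 counted genes of 2-cell-like cells 2 passed and none was called. In bulk RNA, fewer cells of a type and less RNA per cell cannot be told apart.

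Some gene families held members that moved in opposite directions. By a rule on shared symbols, the pairs with the highest levels were Fat1 with Fat2, Lama5 with Lama1 or Lama3, Usp47 or Usp31 with Usp48, Notch3 with Notch4, and Itgb1 with Itgb4 or Itgb7. Fat2 fell from 11.9, 8.0 and 12.4 CPM to 1.36, 1.29 and 1.05 CPM as Fat1 rose. Lama1, the laminin chain of the early embryo, fell from 269.5, 267 and 286 CPM to 36.7, 21.8 and 32.2 CPM, while Lama5 rose from 699, 756 and 695 CPM to 1534, 1410 and 1507 CPM, near the limit at 1.03 (0.997 without EpiLC replicate 1 and 1.07 without ESC replicate 2). Usp48, a deubiquitinase gene, fell from 936, 886 and 919 CPM to 340.1, 346 and 367 CPM and Usp47 rose from 172, 192 and 176 CPM to 351, 387 and 388 CPM, also near the limit at 1.02 (0.99 without ESC replicate 1 and 1.08 without ESC replicate 2, and under the limit without EpiLC replicate 3 as well). A shared name does not by itself mean close kinship, and the ubiquitin proteases are a loose family.

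For 462 genes the 95% interval of the log2 fold change lay within 0.2 of 0. Among the 5 most abundant of these were Hsp90ab1, mt-Co1, Rack1 and Rpl4. Hsp90ab1, a cytosolic chaperone, was at 6147, 6137 and 6299 CPM in ESC and 6207, 6485 and 5867 CPM in EpiLC, a log2 fold change of -0.03 ± 0.04. Rpl4 was at 2942, 2946 and 2969 CPM and 3057, 3291 and 2948 CPM. Values of all 5 overlapped between the states.

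The RPF libraries, which the total RNA comparison did not use, changed in the same direction for nearly all of these genes. The study describes its total RNA as matched to the RPF, so the shared direction is not that of separate samples. Over the same 11332 genes 24.8% were called in RPF in either direction. Of the 1539 genes called higher in total RNA, 1384 (89.9%) were also called higher in RPF, and of the 1101 called lower, 948 (86.1%) were also called lower. None was called in the opposite direction, and 1536 and 1098 had the same sign. The median RPF log2 fold change was 2.00 for the first set and -1.83 for the second. The difference between the 2 kinds of library was not tested for single genes.

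**Figure D5:**
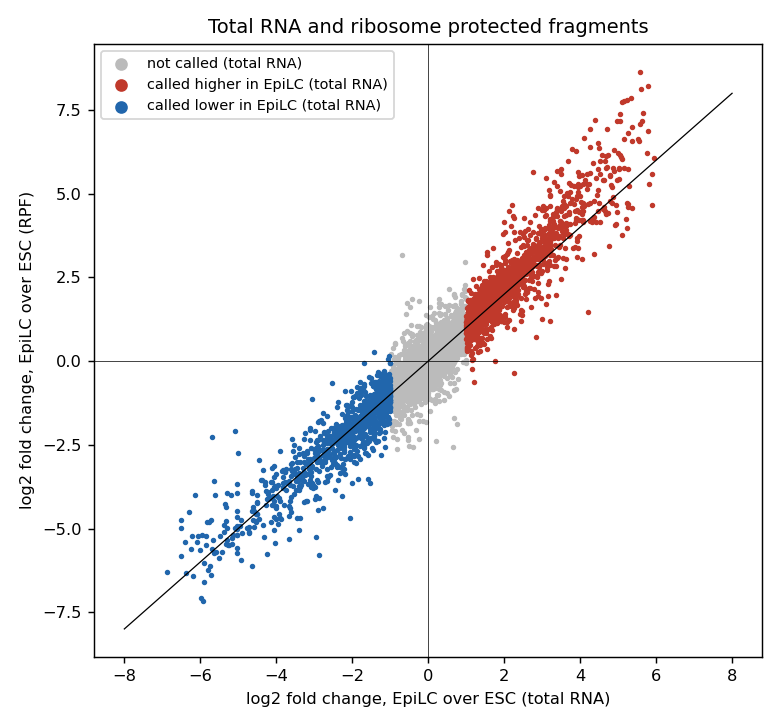
Log2 fold change in RPF (vertical axis) against that in total RNA (horizontal axis), EpiLC over ESC, for the 11332 tested genes; the line marks equal change. Genes called in total RNA are red (higher) or blue (lower), and 89.9% and 86.1% of them were called in the same direction in RPF.

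The called genes were close to all tested genes in median GC content. Genes called higher had a longer median counted length, and both called sets had a lower median level. The median GC content of the coding sequence was 54.9% for genes called higher, 54.7% for those called lower and 53.1% for all tested. Counted coding length had medians of 1635, 1470 and 1458 nt. The median level in the higher group was 18.3 CPM for genes called higher, 22.2 CPM for those called lower and 39.3 CPM for all. RefSeq promoters were matched to 79.2% of tested genes, 75.1% of those called higher and 78.1% of those called lower, below the 80% set as a minimum, so a comparison of promoter motifs between the called sets is void and is not given. The CArG shares above rest on the same match, so the same limit holds and no comparison should be drawn from them.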

How the data were processed

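Total RNA and RPF libraries were made by the authors with a ribosome profiling kit. According to the study's methods and the submitters' processing notes, reads were trimmed with cutadapt 1.14, mapped with STAR 2.5.3a to mm10 keeping reads with a single place, and counted with featureCounts 1.5.3 over Gencode coding sequences on the matching strand, without the first 45 nt of each. The deposited values are these raw read counts per gene, with no normalization, so reads that fall equally well on near-identical paralogues were lost. The 12 columns were matched to samples by name.

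Genes with 3 or more CPM in at least 3 of the 6 total RNA libraries were tested (11332 genes) with limma 3.58.1 (R 4.3.3) on voom values with TMM factors from edgeR 4.0.16, without covariates, and p-values were Benjamini-Hochberg adjusted over all of them. A call needed an adjusted p under 0.05 and a log2 fold change above 1 or below -1. RPF libraries were fitted in the same way over the same genes. CPM values are counts scaled to a common total of counted reads per library. All 3 replicates of each group were used as separate samples, as no pair of libraries agreed within sampling noise. Replicate numbers did not pair ESC with EpiLC libraries: the correlations of same-numbered deviations from the group means were -0.0164, 0.0289 and 0.00175. The fit was tested on simulated data with known changes. Alternatives were edgeR's quasi-likelihood test, DESeq2 1.42.0, other scalings and filters, a fit of all 12 libraries, a correction for GC content, a replicate block and leaving out each library.

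The gene lists and the comparison itself were chosen with earlier results of these data known, so lists are described by counts and medians, without tests. Named genes were 6 state markers, the 12 largest rises and falls with 20 CPM or more in the higher group, the 8 largest differences in mean CPM each way, up to 3 rises and 3 falls with the largest fold change in each list among members with 10 CPM or more (or the most abundant member where none was called), the 8 most abundant pairs of like-named genes called in opposite directions, and the 5 most abundant genes whose 95% interval lay within 0.2 of 0. The CArG box, its windows and the following genes were chosen after their values were seen: Vcl, Actb, Zfp36, Acta1, Myl9, Cnn2, Vil1, Actg1, Fhl1, Krt17, Notch1, Notch2, Hes1, Insr, Igf1r, Igf2, Shmt2, Phgdh, Psat1, Ctsd, H2-K1, B2m, Ddx4, Sycp3, Rlim, Stag2, Map3k15 and Tfe3. Some genes that these rules name are not reported here. Promoters are RefSeq sequences of GRCm38.p6 matched by symbol. Depth and counting error limit values near 3 counts per library.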

Additional observations from a re-analysis of the deposited data

How the results depend on the processing

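The counts of genes called higher and lower (1539 and 1101) were 1533 and 1094 with edgeR's quasi-likelihood test, 1539 and 1091 with DESeq2, 1532 and 1114 with limma-trend, 1578 and 1068 scaled by total counts, 1541 and 1095 with DESeq2 size factors, 1579 and 1066 in a fit of all 12 libraries, and 1481 and 1144 with a GC correction. A filter of 10 counts in every library left 11129 genes and called 1319 and 836. Testing every gene with a count (16644 genes) gave 2659 and 1792, and dropping the limit on fold change gave 3792 and 3829, where more genes were tested or admitted by construction. Leaving out each library in turn gave between 1495 and 1610 higher and between 1078 and 1137 lower genes. With a replicate block the counts were 1540 and 1101 (1484 and 1146 with the GC correction as well), and the block changed the call of 1 of the 283 named genes. With RPF libraries in that block, 2314 of the 2640 genes called in total RNA were called in the same direction. No named gene changed direction in any setting run. Loss of a call touched between 0 and 9 of the 283 named genes per setting among those tested, but the filter of 10 counts in every library left 45 of them untested. Of 68 list medians 13 changed sign in some setting, 9 by less than 0.2 (all within 0.13 of 0 as reported) and 4 by more: neural markers gave -0.062 with 10 counts in every library, between -0.062 (without EpiLC replicate 1) and 0.323 (without ESC replicate 3) with libraries left out, -0.495 after GC correction and -0.533 where that correction was joined to the block. Fibroblast markers gave -0.03 with 10 counts in every library, Sox genes -0.04 after GC correction and -0.053 with the block added, and serpins 0.301 with 10 counts in every library. With that filter no Hox gene was left to test. The cause was not tested. Depth limits genes near 3 counts, 0.205 to 0.485 CPM, in the lower state, where fold changes depended most on single libraries.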
